A study of Mus musculus with 30 samples.

Results

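Wnt7b, a secreted Wnt ligand, and Lef1, a DNA-binding factor that acts with beta-catenin, are described here with 6 further genes of the same pathway in mouse embryonic stem (ES) cells that lose Esrrb. The 8 genes are Wnt7b, Lef1, Tcf7, Tcf7l1, Tcf7l2, Ctnnb1, Axin2 and Sp5. They were taken by symbol from tables of 20300 genes with exonic counts and 17916 with intronic counts, and 7 of the 8 passed the filter on low counts in each table. From a table of 14559 Esrrb ChIP-seq peaks, the 19 peaks lying within 50 kb of the starts of these genes were added. The genes were chosen by their measured exonic and intronic counts in withdrawn and DOX cells, Wnt7b for its lower and Lef1 for its higher level after withdrawal, so that every value of that contrast for the 8 genes is given as a description, without a test.

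In the canonical Wnt pathway, a ligand engages Frizzled and Lrp receptors, the complex that destroys beta-catenin is held back, and beta-catenin enters the nucleus and joins the TCF/LEF factors on DNA. Tcf7l1 is known mainly as a repressor of pluripotency genes in mouse ES cells, while Lef1 and Tcf7 are known mainly as activators. Esrrb is an orphan nuclear receptor of the pluripotency network, and in mouse ES cells it is known as a gene that Tcf7l1 represses.

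The RNA-seq came from EKOiE-Ccna-Gfp cells, ES cells of strain 129/Ola in serum medium with LIF. EKOiE cells lack functional Esrrb alleles and carry an Esrrb transgene that doxycycline (DOX) induces, and the Ccna2-Gfp reporter was used to sort early G1, late G1 and G2 cells. Each phase was sampled after 24 h of DOX withdrawal and with DOX kept on, with 3 libraries in each of the 6 groups. The Esrrb ChIP-seq compared mitotic cells gathered by shake-off with asynchronous cells, called interphase here. It held 4 mitosis and 4 interphase libraries with DOX, and 2 of each after 48 h of withdrawal, which the deposited table heads as its controls. In both DOX groups replicate 2 was wild-type E14Tg2a and the other libraries were EKOiE. All RNA-seq libraries share the knockout and the transgene, and the labels do not state how many clones the line holds or whether libraries of a group were separate cultures, so the p-values cover no more than the spread between these samples.

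Exonic Esrrb averaged 163 ± 27.3, 165 ± 7.0 and 190.0 ± 6.43 CPM (counts per 1 M counts, library sizes scaled by TMM) in withdrawn early G1, late G1 and G2 cells, against 243 ± 37.7, 317 ± 28.0 and 273 ± 26.9 CPM with DOX (SD, n = 3), and the groups did not overlap in any phase. Reads of the transgene and of the endogenous locus cannot be told apart in these counts. Intronic Esrrb averaged 107 ± 18.4, 108 ± 4.58 and 101 ± 16.3 CPM in withdrawn early G1, late G1 and G2 libraries. With DOX it averaged 115 ± 4.62, 119 ± 4.36 and 110 ± 1.73 CPM (SD, n = 3). The intronic groups overlapped in early G1 and G2 but not in late G1, as for 5.76% of all genes tested. The source of the exonic Esrrb counts after withdrawal was not tested. Exonic totals ran from 11.1 to 31.8 M counts and intronic totals from 6.1 to 20.8 M. The 6 ES cell markers (Pou5f1, Sox2, Nanog, Zfp42, Klf4, Dppa5a) summed to 3430 to 4750 CPM in withdrawn libraries and 3860 to 5060 CPM with DOX. Of the 6 fibroblast or feeder markers 2 passed the filter, and the list summed to 6.94 to 10.5 CPM in withdrawn libraries and 7.84 to 12.6 CPM with DOX. Mesendoderm markers (3 of 5 passed) summed to 3.72 to 8.0 and 3.28 to 5.94 CPM, and trophoblast markers (2 of 4 passed) to 8.97 to 58.2 and 16.4 to 64.1 CPM, in withdrawn and DOX libraries. The 4 neural markers (3 passed) summed to 51.3 to 73.2 CPM in withdrawn libraries, with a median of 66.7, and 39.6 to 70.4 CPM with DOX, with a median of 48.6. Nes reached 2075 counts in a library, beside at most 141 for the other neural markers. Krt8 reached 1248, beside at most 29 for the other trophoblast markers, so each of these sums mostly reads 1 gene. Elf5, Twist2 and Neurog2 had 0 counts in 10, 9 and 8 of the 18 libraries, and the part of these cell types in the results was not tested. The 6 libraries numbered 1 stood apart from the rest on the first principal component, so values without them are given for some genes. Some values not given also moved, as did exonic Ctnnb1, whose log2 fold changes in early G1 and G2 turned sign to 0.01.

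The promoters of 3 genes are shown because those of Tcf7 and Sp5 hold, and that of Lef1 lacks, letters known from Esrrb or TCF/LEF binding. RefSeq (GRCm38.p6) gave 13 promoters for 7 of the 8 genes and none for Wnt7b, whose promoter was therefore not searched. The 250 bases before each start were searched on both strands for AAGGTCA, the core that Esrrb is known to recognise. They were also searched for CTTTGAT and CTTTGAA, a core of TCF/LEF sites. None of these motifs overlap one another here. Of 32851 mouse promoters of that length, 4.08% held AAGGTCA, 3.21% held CTTTGAT and 4.46% held CTTTGAA. Capitals mark the matches, and each sequence runs 5′ to 3′ on the strand of its gene.
Tcf7, second listed start, chr11:52282596-52282845, minus strand: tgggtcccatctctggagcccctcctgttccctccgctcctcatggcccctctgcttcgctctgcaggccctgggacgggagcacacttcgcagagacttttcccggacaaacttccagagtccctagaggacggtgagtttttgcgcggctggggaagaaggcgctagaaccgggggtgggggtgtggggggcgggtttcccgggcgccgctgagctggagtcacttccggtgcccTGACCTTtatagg
Sp5, chr2:70474673-70474922, plus strand: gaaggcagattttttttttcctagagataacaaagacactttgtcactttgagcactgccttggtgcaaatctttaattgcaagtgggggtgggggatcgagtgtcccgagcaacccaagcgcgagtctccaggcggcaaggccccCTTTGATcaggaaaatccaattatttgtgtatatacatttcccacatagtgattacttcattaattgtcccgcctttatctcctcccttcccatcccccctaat
Lef1, first listed start, chr3:131110047-131110296, plus strand: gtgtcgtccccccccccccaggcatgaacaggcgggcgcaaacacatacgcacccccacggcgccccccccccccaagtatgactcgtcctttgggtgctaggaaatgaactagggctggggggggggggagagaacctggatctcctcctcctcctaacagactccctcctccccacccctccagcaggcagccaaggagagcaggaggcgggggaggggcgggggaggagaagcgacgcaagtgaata
In Tcf7 the match to AAGGTCA lay on the opposite strand and began 13 bases before the start. In Sp5 the match to CTTTGAT began 104 bases before the start, and none of the 13 promoters held CTTTGAA. These are letter matches in 1 assembly, while the peaks below are in mm9, and no peak was read for sequence.

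The ligand was lower after withdrawal in every phase. In early G1, Wnt7b stood at 6.68, 6.30 and 8.93 exonic CPM in the withdrawn libraries (replicates 1, 2 and 3) and at 13.9, 15.7 and 13.1 CPM with DOX. In late G1 it stood at 6.12, 5.60 and 4.87 CPM in the withdrawn libraries and at 12.6, 14.4 and 16.5 CPM with DOX. In G2 it stood at 4.04, 6.25 and 6.84 CPM in the withdrawn libraries and at 12.2, 10.2 and 12.2 CPM with DOX. No withdrawn library reached the lowest DOX library of its phase, an order that 7.66%, 9.02% and 10.0% of all genes tested also showed in early G1, late G1 and G2. The fitted log2 fold changes, withdrawn minus DOX, were -0.95 ± 0.20, -1.40 ± 0.20 and -1.03 ± 0.20 (edgeR, SE), and the means with DOX were 1.95, 2.62 and 2.02 times the withdrawn means. These libraries held 93 to 223 Wnt7b counts each after withdrawal and 112 to 272 with DOX. In bulk libraries, fewer cells that express a gene and less RNA per cell cannot be told apart.

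Intronic Wnt7b, which reads unspliced transcripts, differed by similar amounts. It averaged 9.24 ± 1.21, 8.03 ± 1.43 and 8.91 ± 1.19 intronic CPM in withdrawn early G1, late G1 and G2 libraries, against 16.9 ± 2.17, 19.7 ± 3.51 and 18 ± 2.74 CPM with DOX (SD, n = 3). The intronic log2 fold changes were -0.87 ± 0.19, -1.29 ± 0.19 and -1.02 ± 0.19 (SE), near the exonic values. Again no withdrawn library overlapped the DOX libraries of its phase, as for 5.7%, 5.76% and 5.24% of all genes tested. In G2 the exonic difference without the libraries numbered 1 was -0.77 ± 0.20.

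Lef1 went the other way and varied more between libraries. In early G1 it stood at 4.31, 3.34 and 4.52 exonic CPM in the withdrawn libraries and at 1.11, 1.13 and 1.90 CPM with DOX. In late G1 it stood at 4.0, 1.56 and 6.99 CPM in the withdrawn libraries and at 1.58, 1.09 and 1.34 CPM with DOX. In G2 it stood at 9.55, 2.69 and 7.20 CPM in the withdrawn libraries and at 1.61, 0.545 and 2.04 CPM with DOX. Replicate 2 was the lowest withdrawn library in each phase, and in late G1 it fell inside the DOX range; in early G1 and G2 all withdrawn libraries were above all DOX libraries, as for 6.78% and 8.96% of all genes tested. The log2 fold changes were 1.52 ± 0.52, 1.64 ± 0.52 and 2.16 ± 0.51 (SE), from 6 to 39 counts per library with DOX and 26 to 300 after withdrawal. The late G1 value was 1.04 without withdrawn replicate 3.

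The introns of Lef1 were also higher after withdrawal, by less in late G1 and G2. Intronic Lef1 averaged 11.9 ± 5.39, 10.3 ± 4.90 and 12.1 ± 2.83 CPM in withdrawn early G1, late G1 and G2 libraries, against 5.19 ± 0.556, 6.85 ± 2.29 and 5.90 ± 3.02 CPM with DOX (SD, n = 3). The log2 fold changes were 1.21 ± 0.41, 0.58 ± 0.40 and 0.99 ± 0.40 (SE), and withdrawn and DOX libraries overlapped in late G1. With 1 late G1 library left out the late G1 value ran from 0.16, without withdrawn replicate 3, to 0.87, without withdrawn replicate 2. It was 0.89 without all libraries numbered 1. The difference between the exonic and the intronic change was not tested.

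**Figure D1:**
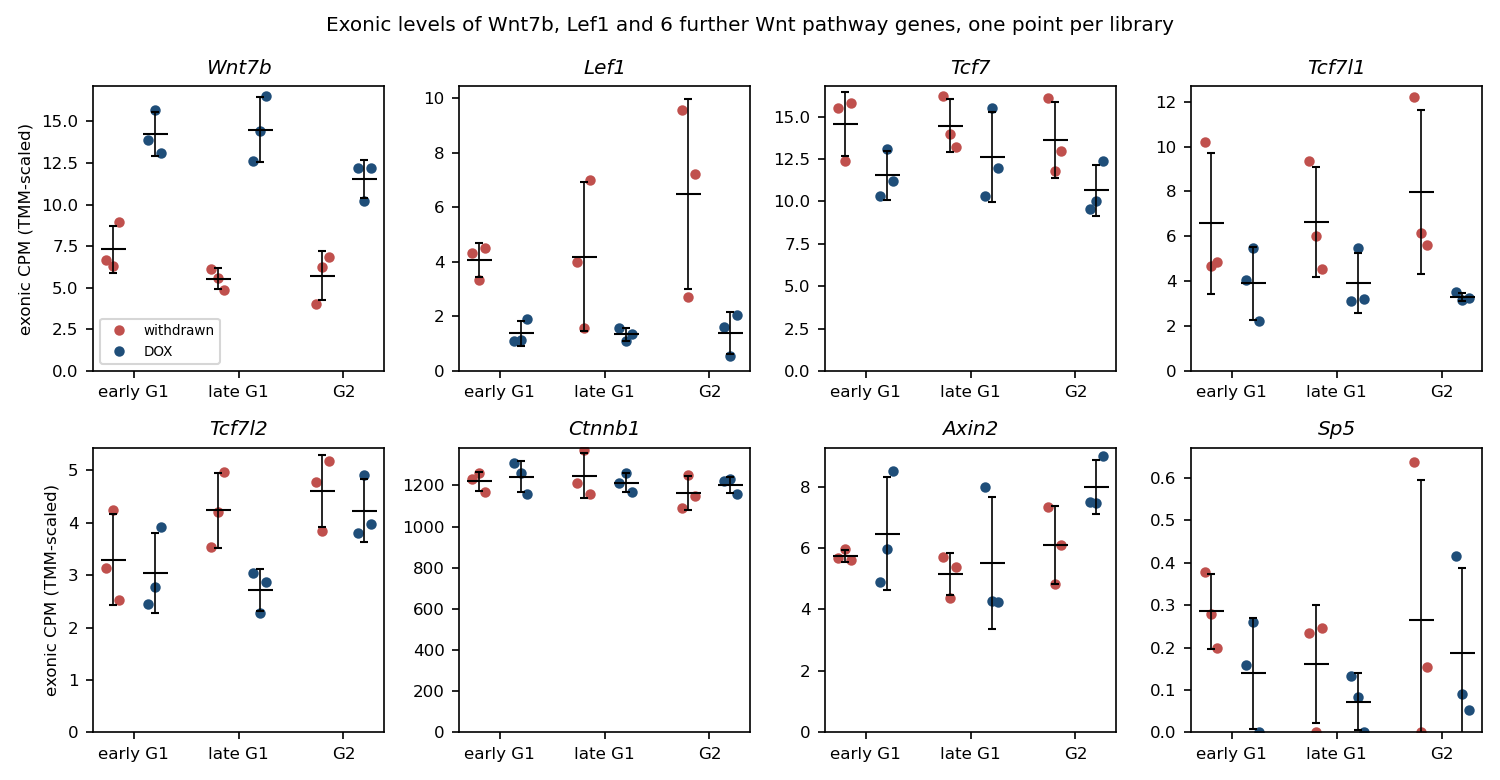
Exonic level (CPM, linear axes from 0, a scale of its own per gene) of each of the 8 genes by phase, withdrawn libraries left of DOX libraries. Points are libraries, horizontal bars the group means and whiskers ± 1 SD (n = 3, drawn down to 0 at most); Wnt7b is lower in every withdrawn group and Lef1 is higher, with 1 late G1 withdrawn library at 1.56 CPM.

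The 3 other TCF/LEF factors differed among themselves. Tcf7l1, the known repressor, stood at 10.2, 4.68 and 4.84 exonic CPM in withdrawn early G1 libraries against 4.04, 5.46 and 2.22 CPM with DOX, and at 9.35, 6.02 and 4.53 CPM in withdrawn late G1 libraries against 3.1, 5.46 and 3.22 CPM with DOX. In G2 it stood at 12.2, 6.13 and 5.59 CPM in the withdrawn libraries against 3.51, 3.18 and 3.24 CPM with DOX. Withdrawn replicate 1 was the highest library in every phase, and the groups overlapped in early and late G1 but not in G2. In G2 8.96% of all genes tested also had all withdrawn libraries above all DOX libraries. The exonic log2 fold changes of 0.78 ± 0.40, 0.76 ± 0.40 and 1.28 ± 0.40 (SE) became 0.38 ± 0.35, 0.30 ± 0.35 and 0.87 ± 0.35 without the libraries numbered 1. Without the withdrawn replicate 1 alone they were 0.31, 0.44 and 0.83.

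Intronic Tcf7l1 rested on far more counts, 305 to 3629 per library, and its groups did not overlap in any phase. It averaged 125 ± 28.8, 116 ± 6.03 and 128 ± 36.8 CPM in withdrawn early G1, late G1 and G2 libraries, against 78.4 ± 9.57, 88.0 ± 3.18 and 74.9 ± 19.3 CPM with DOX (SD, n = 3), an order that 5.48%, 5.27% and 5.29% of all genes tested also showed. Its intronic log2 fold changes were 0.67 ± 0.20, 0.39 ± 0.20 and 0.76 ± 0.20 (SE), and in G2 the value was 0.51 without withdrawn replicate 1.

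Tcf7 and Tcf7l2 differed less. Tcf7 averaged 14.6 ± 1.88, 14.5 ± 1.55 and 13.6 ± 2.22 exonic CPM in withdrawn early G1, late G1 and G2 libraries, against 11.5 ± 1.43, 12.6 ± 2.65 and 10.7 ± 1.53 CPM with DOX (SD, n = 3), and the groups overlapped in each phase. Its log2 fold changes were 0.34, 0.20 and 0.35 in exons (SE 0.18 each) and 0.01, -0.07 and -0.09 in introns, and the late G1 and G2 exonic values were -0.01 and 0.14 without the libraries numbered 1. Tcf7l2 stood at 3.53, 4.21 and 4.97 exonic CPM in withdrawn late G1 libraries against 3.04, 2.27 and 2.86 CPM with DOX, without overlap, as 8.14% of all genes tested. Its log2 fold changes were 0.09 ± 0.25, 0.63 ± 0.25 and 0.13 ± 0.24 in exons and 0.31, 0.33 and 0.29 in introns (SE 0.24 each), the groups overlapping in early G1 and G2 and in introns. The early G1 exonic value was -0.02 without the libraries numbered 1.

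Ctnnb1, which encodes beta-catenin itself, had the smallest exonic differences of the 7 genes. It ranged from 1090 to 1370 exonic CPM over the 9 withdrawn libraries and from 1160 to 1310 CPM over the 9 DOX libraries. Its log2 fold changes were -0.03, 0.04 and -0.05 in exons (SE 0.10 each) and -0.08, -0.02 and -0.09 in introns (SE 0.12 each). Withdrawn and DOX libraries overlapped in every phase in both tables.

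Of the feedback genes, Axin2 could be fitted and Sp5 could not. Axin2, a scaffold of the destruction complex and a widely used target gene of the pathway, averaged 5.74 ± 0.189, 5.16 ± 0.685 and 6.09 ± 1.27 exonic CPM in withdrawn early G1, late G1 and G2 libraries, against 6.46 ± 1.84, 5.51 ± 2.15 and 7.98 ± 0.878 CPM with DOX (SD, n = 3). In G2 the withdrawn libraries at 7.35, 4.82 and 6.11 CPM lay just below the DOX libraries at 7.49, 7.45 and 8.99 CPM, as for 10.0% of all genes tested. Its exonic log2 fold changes were -0.18 ± 0.25, -0.10 ± 0.26 and -0.38 ± 0.25 (SE), and the late G1 value was 0.26 without DOX replicate 1. Without all libraries numbered 1 the values were -0.34, 0.20 and -0.59. Sp5, a zinc-finger factor known as a direct Wnt target, had 0 to 20 exonic counts per library and did not pass the filter. Its 20 counts were in withdrawn G2 replicate 1, and 4 of 18 libraries had 0 counts, which allows up to 0.161 to 0.179 CPM (3 counts of the library total, counting error only). Its introns had at most 1 count.

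**Figure D2:**
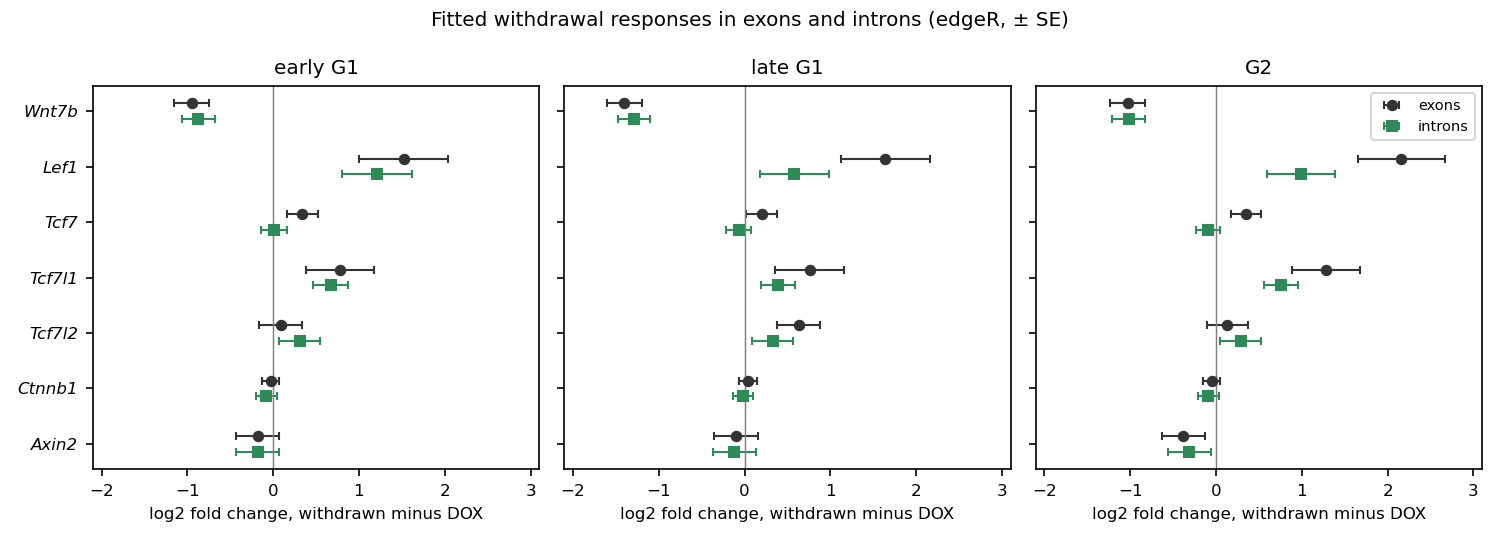
Fitted log2 fold changes (withdrawn minus DOX, x axis) of the 7 genes that passed the filter, by phase, in exons (circles) and introns (squares), with bars of ± 1 SE. Wnt7b lies left of 0 by about equal amounts in exons and introns, Lef1 and Tcf7l1 lie right of 0, and Ctnnb1 lies at 0.

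Same-numbered exonic libraries deviated together, and a fit with a block for that number left the differences about the same with smaller errors. Wnt7b was at -0.96, -1.39 and -1.05 in early G1, late G1 and G2 (log2, withdrawn minus DOX, SE 0.18 each), and Lef1 at 1.59 ± 0.35, 1.59 ± 0.35 and 2.18 ± 0.33 (SE). Tcf7l1 was at 0.76, 0.72 and 1.21 in that fit (SE 0.30 each), Axin2 at -0.19 ± 0.22, -0.09 ± 0.23 and -0.39 ± 0.22, and Ctnnb1 at -0.03, 0.04 and -0.05 (SE 0.08 each).

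Whether the 8 genes changed with the cell cycle itself is a question the choice did not use. With DOX, Wnt7b averaged 14.2 ± 1.33, 14.5 ± 1.95 and 11.5 ± 1.15 exonic CPM in early G1, late G1 and G2 (SD, n = 3), so that late G1 was the highest and G2 the lowest. After withdrawal the means were 7.30 ± 1.42, 5.53 ± 0.628 and 5.71 ± 1.48 CPM, with early G1 the highest. No neighbours in either order differed beyond their spread by the test: the largest difference for Wnt7b was late G1 minus early G1 after withdrawal, -0.41 ± 0.20 (SE, edgeR adjusted p = 1.0). Over the 7 genes, 3 pairs of phases and both DOX states, the 42 exonic log2 differences ran from -0.41 for Wnt7b to 0.68 for Lef1 (G2 minus early G1 after withdrawal, SE 0.46). None passed in edgeR, 1 of the 42 had an unadjusted p under 0.05 (Tcf7l2, G2 minus late G1 with DOX, 0.62 ± 0.25), and 0.0% of the 14092 genes passed in any of the 6 contrasts. DESeq2 called 0 genes in these contrasts, and edgeR gave 136 to 588 genes an unadjusted p under 0.05. The 42 intronic differences ran from -0.23 to 0.41 and none passed. The difference in withdrawal response between phases ran from -0.50 to 0.64 in exons over the 21 values of these genes. It is built from the values used to choose Wnt7b and Lef1, so these values are a description. In edgeR, 0.0% of the 14092 genes passed in any of these contrasts. Whether the response of Wnt7b in late G1 differed from that in other phases therefore cannot be read from them.

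Esrrb binding near the genes was measured independently of the RNA. Within 50 kb of the start, Wnt7b had 6 peaks, Tcf7l1 5, Tcf7 3, Lef1 2, Tcf7l2 2 and Axin2 1, while Ctnnb1 and Sp5 had 0. Over the whole series, 51.2% of 20300 genes had at least 1 peak in this window and 3.71% had 6 or more. The farthest Wnt7b peak inside the window began 44.4 kb from the start and the nearest outside it 50.4 kb, and for Tcf7l1 the nearest outside lay at 51.1 kb. No peak lay over a start: the nearest was centred 1.34 kb inside Tcf7l1 (chr6:72737251-72738150), and the next 4.57 kb upstream of Tcf7. The authors' classes put 2 of the 19 peaks among those they call Bookmarked, against 13.6% of all peaks, and 17 among those they call Lost.

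Those 2 were a Wnt7b peak centred 16.9 kb upstream (chr15:85428601-85429650) and a Tcf7 peak centred 11.7 kb upstream (chr11:52106701-52108200). At this Wnt7b peak the heights, log2 of the reads per kb and per 1 M library reads, were 0.53, 1.04, 0.65 and 1.26 in mitosis with DOX and 1.29, 2.02, 1.83 and 3.52 in interphase with DOX, from 82 to 146 and 129 to 163 reads. After withdrawal they were -3.29 and -0.81 in mitosis (2 and 34 reads) and -2.48 and -1.24 in interphase (5 and 18 reads). All DOX libraries were thus above all withdrawn libraries in each state. All mitosis libraries with DOX were below all those of interphase, with means of 0.87 and 2.16. The share of all peaks in these orders is not given, so they are a description of this peak. In limma, 99.6% of all peaks were called higher with DOX in interphase, 22.4% in mitosis, and 91.4% lower in mitosis than in interphase. The highest mitosis library (1.26) and the lowest interphase library (1.29) lay close together.

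Mitosis minus interphase, with DOX, was -1.30 ± 0.54 at this peak (SE, limma adjusted p = 0.0274), higher than at 91.8% of all peaks. It no longer passed without interphase DOX replicate 4, the library of 10.7 M reads (-0.84), or without mitosis DOX replicate 1 (-1.18) or 3 (-1.22). The 5 other Wnt7b peaks differed by -1.81 to -2.83. In mitosis, DOX minus withdrawn was 2.92 ± 0.66 (SE, limma adjusted p = 0.0078), and this was the only 1 of the 19 peaks called in that contrast, in which 22.4% of all peaks were called higher. Without mitosis withdrawn replicate 1, a library of 18.6 M reads, the value was 1.68, and without replicate 2 it was 4.16. Each of these fits leaves 1 withdrawn library in mitosis, so the size of the difference rests on which library is kept. Reads recovered from the heights and fitted in edgeR gave 2.32 and called 0 of 14559 peaks.

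Of the 19 peaks 18 were lower in mitosis than in interphase with DOX (limma adjusted p under 0.05), as were 91.4% of all peaks, and the exception was the Tcf7 peak 4.57 kb upstream (-1.77 ± 0.85, limma adjusted p = 0.0522). Their differences ran from -3.56 to -1.30 with a median of -2.1, beside -2.26 over all peaks. Set against the median of all peaks in each library, 0 of the 19 and 3.43% of all peaks were called, 322 higher and 177 lower in place of 7 higher and 13307 lower, and the sign of 10 of the 19 turned. The largest fall was at the Tcf7l1 peak 1.34 kb inside the gene, at -3.30, -1.22, -1.31 and -1.02 in mitosis with DOX and 0.64, 2.08, 1.86 and 2.80 in interphase with DOX (-3.56 ± 0.79, limma adjusted p = 0.000423), lower than at all but 1.7% of peaks. The Lef1 peak 7.96 kb upstream (chr3:130804501-130806000) stood at -1.0, -0.62, -1.31 and -1.14 in mitosis with DOX and 1.16, 2.08, 1.76 and 2.06 in interphase with DOX (-2.79 ± 0.47, limma adjusted p = 3.25e-05). In mitosis the heights after withdrawal, -0.89 and -0.98, lay within the range with DOX (difference -0.08 ± 0.58).

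**Figure D3:**
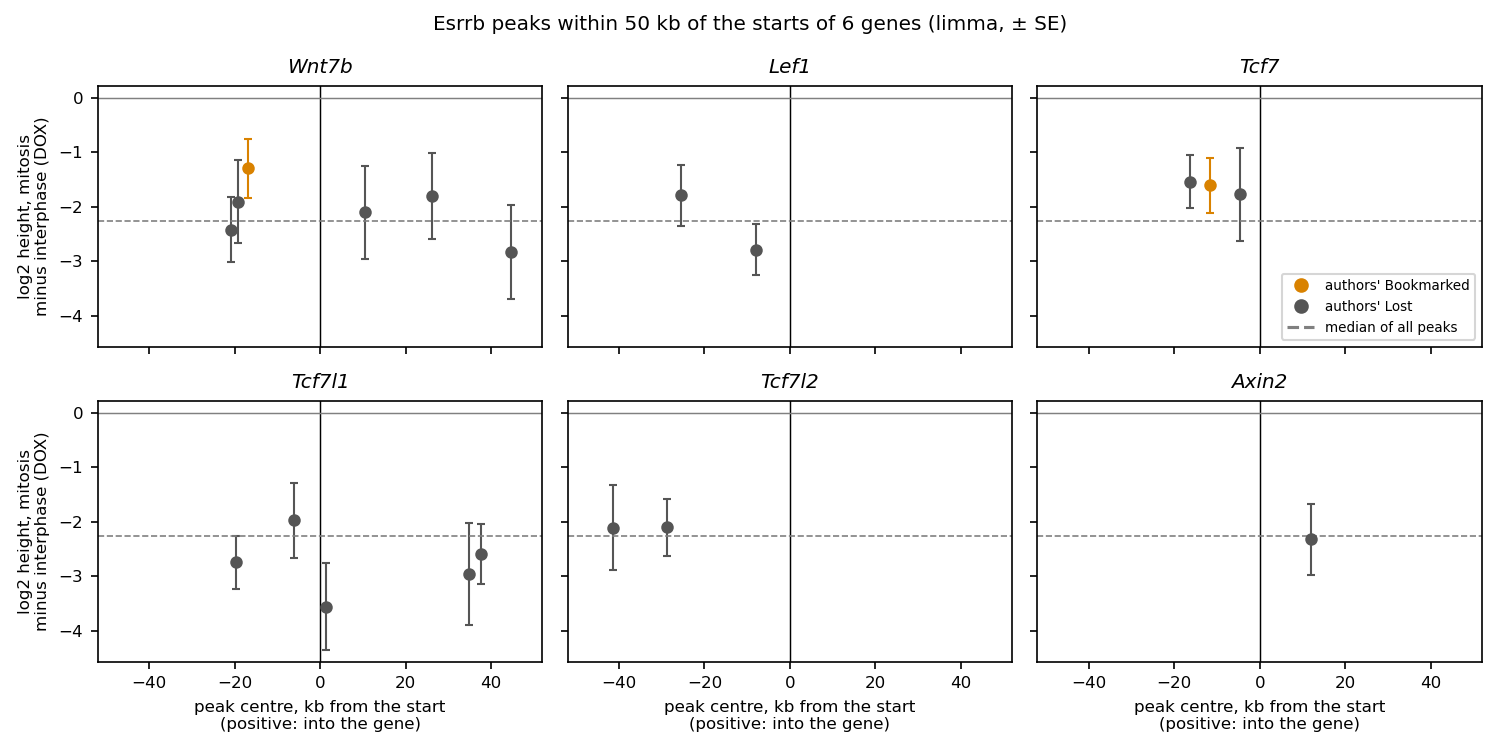
Esrrb height in mitosis minus interphase with DOX (log2, y axis, ± 1 SE, limma) against the distance of the peak centre from the gene's start (kb, x axis) for the 19 peaks of 6 genes. All points lie below 0, and the Wnt7b peak 16.9 kb upstream, called Bookmarked by the authors, is the highest at -1.30.

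In interphase all 19 peaks were higher with DOX than after withdrawal, as were 99.6% of all peaks (limma adjusted p under 0.05), with differences of 2.68 to 5.33 and a median of 4.03 beside 3.74 over all peaks. The Lef1 peaks had the smallest differences, 2.77 ± 0.69 and 2.68 ± 0.58 (SE), lower than at all but 7.52% and 5.95% of peaks. The Wnt7b peak 20.9 kb upstream had the largest, 5.33 ± 0.73, higher than at 96.4% of peaks, with heights of 1.34, 2.27, 1.87 and 3.46 with DOX and -3.58 and -2.60 after withdrawal. Centred on the median of all peaks, 1 of the 19 was called higher, beside 2.77% of all peaks called higher and 0.543% lower, and 6 turned sign, both Lef1 peaks among them. Without interphase withdrawn replicate 1, which leaves 1 withdrawn library, the median over the 19 was 3.03, beside 2.97 over all peaks. ChIP-seq and RNA-seq differ in the length of withdrawal, 48 h and 24 h, and no test joined them.

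**Figure D4:**
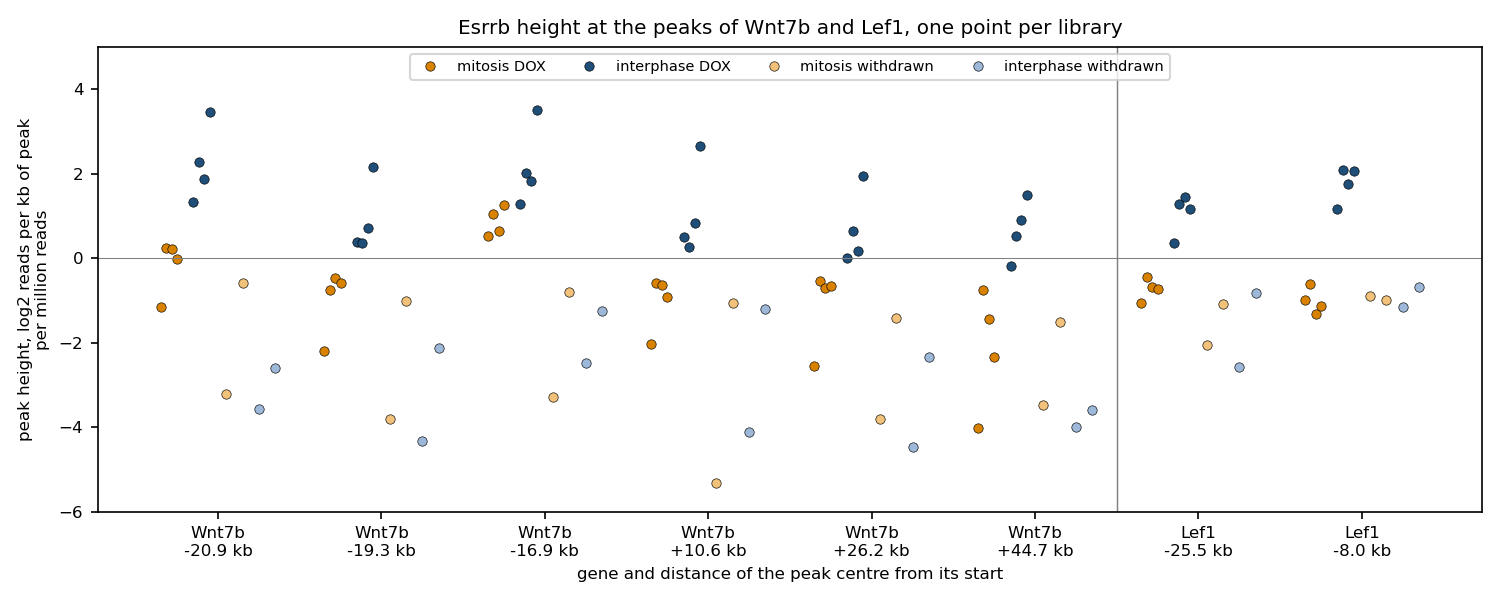
Esrrb height (log2 of the reads per kb and per 1 M library reads, y axis) in each ChIP-seq library at the 6 peaks of Wnt7b and the 2 of Lef1, ordered by distance from the start (x axis). Points are libraries, coloured by group. At the Wnt7b peak 16.9 kb upstream the 4 mitosis DOX libraries lie between 0.53 and 1.26, above both mitosis withdrawn libraries. The share of all peaks in that order is not given.

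The rest of the pathway was read from a list of 93 other Wnt genes in 9 roles, of which 70 passed the filter in exons and 66 in introns. The list was drawn up with earlier results of these data known. Its shares beside those of all genes, here and below, are therefore a description. In edgeR without a block 0, 1 and 0 of the 70 were called in early G1, late G1 and G2, beside 0.163%, 0.461% and 0.972% of all genes. Of the 70, 14, 11 and 15 had an unadjusted p under 0.05. The share of all genes at that level is not given, so no excess can be read from these counts. DESeq2 called 2, 3 and 6 of the 70, beside 1.09%, 2.5% and 3.26% of all genes. The 1 gene was Myc, a transcription factor gene and known pathway target, which rose in late G1 by 1.21 ± 0.26 on the log2 scale (SE, edgeR adjusted p = 0.045), at 16.8 ± 6.35 CPM in withdrawn libraries against 7.25 ± 1.41 CPM with DOX (SD, n = 3). No gene of the list was called in late G1 without withdrawn replicate 1 or 2, without any 1 of the 3 DOX replicates, or without all libraries numbered 1.

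With the replicate number as a block, 5 rose and 6 fell in early G1, 7 rose and 3 fell in late G1, and 11 rose and 7 fell in G2, together 15.7%, 14.3% and 25.7% of the 70, beside 4.03%, 9.04% and 11.2% of all genes tested. Of all genes, 1.83%, 4.8% and 5.77% rose and 2.2%, 4.24% and 5.44% fell in early G1, late G1 and G2 in that fit. The median log2 fold change of the 70 was 0.0403, 0.00103 and 0.0678 in that fit, beside -9.22e-05, -0.0035 and -0.0128 over all genes. In all 3 phases 8 of the 70 were called. The share of all genes called in all 3 phases is not given, so this count is a description. Those that rose were Myc, Ccnd1 (cyclin D1, also a known target), Tle4 (a Groucho-type corepressor), Porcn (the acyltransferase that lipidates Wnt ligands) and Chd8 (a chromatin remodeller that binds beta-catenin). Those that fell were Sfrp1 and Dkk3 (a secreted Frizzled-related antagonist and a Dickkopf family member) and Apcdd1 (a membrane inhibitor and target).

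By role, the ligands other than Wnt7b had low counts: 10 of 18 did not pass the filter, with 0 to 16 counts in any library. Of the 8 tested, Wnt6 fell in early G1 and G2 with the block (-1.31 ± 0.33 and -1.76 ± 0.33, SE; edgeR adjusted p = 0.0337 and 0.00339), at 0.713 ± 0.04 CPM in withdrawn G2 libraries against 2.43 ± 0.994 CPM with DOX (SD, n = 3). Wnt2b rose in G2 (2.00 ± 0.49, edgeR adjusted p = 0.016), at 0.864 ± 0.699 CPM in withdrawn G2 libraries against 0.202 ± 0.139 CPM with DOX (SD, n = 3). Wnt5a, the ligand of the list with the highest mean, 3.56 CPM, was not called (0.32, 0.48 and 0.30). Porcn rose by 0.61 ± 0.15, 0.60 ± 0.15 and 0.61 ± 0.15, at 15.5 ± 2.38 CPM in withdrawn early G1 libraries against 10.1 ± 0.892 CPM with DOX (SD, n = 3).

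Among secreted modulators, 8 of 16 were tested and 2 fell in each phase with the block, beside 2.2%, 4.24% and 5.44% of all genes. Sfrp1, the highest of the role at a mean of 31.6 CPM, changed by -0.77 ± 0.16, -0.67 ± 0.16 and -0.72 ± 0.16, and Dkk3 by -0.78 ± 0.13, -0.78 ± 0.13 and -0.60 ± 0.13 (SE, with the block). None of the 17 receptors and coreceptors was called in exons with or without the block; Fzd5, the highest at 106 CPM, changed by -0.22, -0.17 and -0.13. None of the 3 genes of receptor turnover was called in exons, Lgr4, an R-spondin receptor, being the highest at 74.5 CPM. In introns 0 of the 66 genes of the whole list were called in edgeR, beside 0.0%, 0.0142% and 0.0142% of all genes. Of the 66, 7, 5 and 4 had an unadjusted p under 0.05, again without the share of all genes, so no excess can be read. DESeq2 also called 0 of the 66, beside 0.0924%, 0.128% and 0.37% of all genes, and edgeR with the block called 1, 0 and 1, beside 0.476%, 0.632% and 1.62%. Of the 3 Dishevelled genes, Dvl1 fell in G2 (-0.36 ± 0.10) and Dvl2, the highest at 43.1 CPM, was not called.

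All 10 genes of the destruction complex and its regulators were tested, and the changes were small. With the block Apc (0.34 ± 0.09), Tnks (0.43 ± 0.12) and Amer1 (0.44 ± 0.10) rose in G2, Amer1 and Gsk3b (0.37 and 0.39) rose in late G1, and Csnk1a1 fell in early G1 (-0.34 ± 0.08). Tnks2, the highest at 563 CPM, was not called (0.03, 0.10 and -0.02). Of 12 nuclear cofactors, Tle4 (0.41, 0.53 and 0.60, SE 0.10 each) and Chd8 (0.56, 0.58 and 0.70, SE 0.15 each) rose in the 3 phases, Bcl9, a beta-catenin coactivator, rose in G2 (0.56 ± 0.18), and Ctnnbip1, an inhibitor of beta-catenin, fell in early G1 and G2 (-0.37 and -0.33, SE 0.09 each). Ctbp2, the highest at 212 CPM, was not called.

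The known targets moved both ways. With the block 5 of 7 were called in G2, beside 11.2% of all genes tested. Without the block none of them passed in G2, the lowest edgeR adjusted p being 0.0701 for Myc. With it Myc (1.00 ± 0.24), Ccnd1 (0.59 ± 0.15) and Mycn (0.38 ± 0.11) rose. Nkd1 (-1.14 ± 0.25), a negative feedback gene, and Apcdd1 (-0.74 ± 0.15) fell. Ccnd1, the highest of the role at 112 CPM, averaged 152 ± 22.9 CPM in withdrawn G2 libraries and 102 ± 18.2 CPM with DOX (SD, n = 3). Nkd1 averaged 1.35 ± 0.288 CPM in withdrawn G2 libraries against 2.90 ± 0.579 CPM with DOX, and Apcdd1 5.86 ± 0.459 against 9.73 ± 0.663 CPM (SD, n = 3). The list counts Myc, Mycn and Ccnd1 as targets although other pathways are known to set them too.

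**Figure D5:**
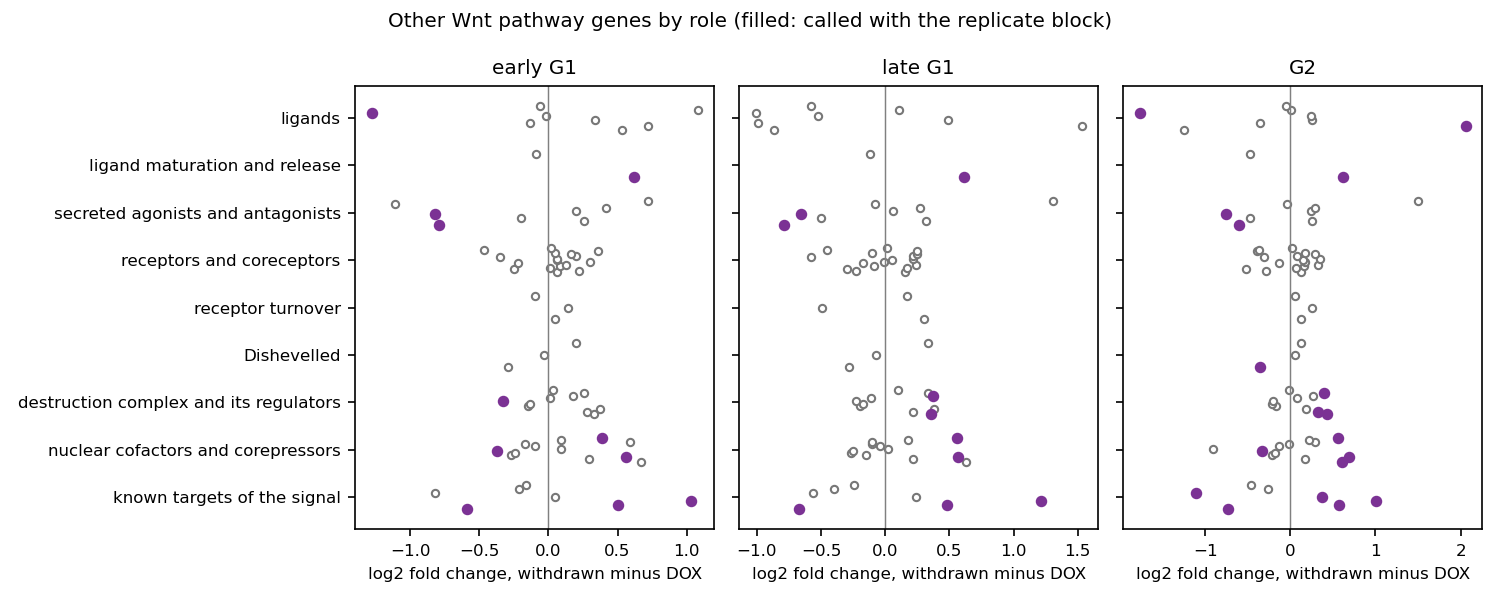
Log2 fold changes (withdrawn minus DOX, x axis, edgeR without a block) of the 70 other Wnt pathway genes by role (y axis) in each phase. Each point is a gene, and filled points were called with the replicate number as a block, which was 11, 10 and 18 genes.

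Over the 18 libraries, the 5 genes most like Wnt7b by Pearson's r of log2 CPM, among 10676 genes with a mean log2 CPM of at least 2, were Sohlh2 (0.950), a germ-cell transcription factor, Gzmm (0.941), a granzyme, Acad11 (0.932), an acyl-CoA dehydrogenase, Csnk1e (0.929), a casein kinase, and Pttg1ip (0.925). Those most like Lef1 were Rbm33 (0.947), an RNA-binding protein, Tenm3 (0.934), a teneurin, Htt (0.927), which encodes huntingtin, Icosl (0.926), a costimulatory ligand, and Nav2 (0.920), a neuron navigator. The points share the 6 groups, the replicate numbers and the depth of their libraries, so these values are a description. Taken as deviations from the mean of each replicate number, 2 of the 5 genes for Wnt7b (Sohlh2, Pttg1ip) and 1 of the 5 for Lef1 (Tenm3) were again among the top 5.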

How the data were processed

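RNA-seq of 18 libraries and Esrrb ChIP-seq of 12 were used. The authors deposited raw counts per gene over exons and over introns, and a peak table with heights per library that, from their values, are log2 of the reads per kb of peak and per 1 M reads, per the file headers and values; other scores in it were not used. The submitters' processing notes name CASAVA 1.8, Bowtie, DESeq2 and build mm9, with no roles. No source used here gives the counter, its strand setting or the peak caller, which leaves overlapping genes uncertain. Peak columns with the word noco were read as mitosis.

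All 18 libraries entered 1 edgeR 4.0.16 fit (R 4.3.3) of 6 group means with TMM, filterByExpr, quasi-likelihood F tests and Benjamini-Hochberg adjustment over all genes tested (14092 in exons, 14075 in introns) at 0.05. Heights entered 1 limma 3.58.1 fit with trend; DESeq2 1.42.0 was an alternative. The design had allowed for counts in the peak table, and limma was used because it holds log2 heights; recovered reads (all values whole within 0.05 read) ran in edgeR as an alternative. Numbers were taken to pair exonic libraries because deviations of same-numbered libraries from their group means correlated in all 9 withdrawal pairs (0.114 to 0.527). Named genes were the 8 genes, every listed gene called with or without the block, the highest gene of each role, and the 5 most alike. Peaks were assigned by distance to the start in the deposited exonic table. The scripts were tested on simulated data. The members and lists were chosen with earlier results of these data known.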

Additional observations from a re-analysis of the deposited data

Results flagged for a closer look

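In groups of 4 ChIP-seq libraries, a library was picked out where its gap to the nearest other library, as a share of the group's range, was above Dixon's 95% critical value for 4 values. Of 38 such groups over the 19 peaks, 3 met this, where chance gives about 1 in 20 independent groups. The groups share the same libraries and are not independent, so this count is a description. All 3 were mitosis DOX replicate 1, an EKOiE library of 54.6 M reads whose median over all peaks was -0.947, against -0.375, -0.469 and -0.42 in the other mitosis DOX libraries. It stood at -2.19 (9 reads) at the Wnt7b peak 19.3 kb upstream, where the others lay between -0.755 and -0.465. It stood at -2.55 (7 reads) at the Wnt7b peak 26.2 kb inside the gene, where the others lay between -0.696 and -0.532. It stood at -3.3 (5 reads) at the Tcf7l1 peak 1.34 kb inside the gene, where the others lay between -1.31 and -1.02. Heights from so few reads carry a large counting error. Without this library, mitosis minus interphase was -1.51, -1.33 and -3.03 at these peaks, and only the last still passed in limma.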

How the results depend on the processing

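Signs of the withdrawal changes of Wnt7b, Lef1 and Tcf7l1 held in exons and introns under all 12 alternatives. These refit the same libraries, and the genes were chosen with the withdrawal values known, so this is a description. Genes called in exons in early G1, late G1 and G2 numbered 23, 65 and 137 as reported, 568, 1274 and 1580 with the replicate block, 139, 339 and 460 in DESeq2 and 6, 2 and 25 with only the groups compared; early G1 gave 14 with no filter. Introns gave 0, 2 and 2 as reported, 67, 89 and 228 with the replicate block, 13, 18 and 45 in DESeq2, and 0 in late G1 and G2 with only the groups compared. Leaving out a replicate gave 4 to 16, 11 to 38 and 21 to 157 genes in exons and 0 to 0, 0 to 2 and 0 to 4 in introns. Without replicate 1 of every group, an alternative chosen after seeing the data, exons gave 16, 110 and 52. Other Wnt pathway genes called were 11, 10 and 18 with the replicate block, 2, 3 and 6 in DESeq2, and in late G1 0 with only the groups compared and 0 to 1 without a replicate. In introns the early G1 withdrawal pair numbered 2 correlated at 0.0916 and the 8 other pairs at 0.191 to 0.439, so the numbers were not taken to pair the libraries there. The same libraries gave both tables, and 0.0916 is close to the lowest exonic value of 0.114. This choice is therefore arbitrary, and values with the block are given for introns too. The replicate block in introns gave Wnt7b -0.87, -1.28 and -1.02 (SE 0.16 each), Lef1 1.18 ± 0.23, 0.56 ± 0.23 and 1.05 ± 0.22, and Tcf7l1 0.66 ± 0.17, 0.39 ± 0.16 and 0.77 ± 0.17 in early G1, late G1 and G2, and called Ror1, a receptor for Wnt5a, in early G1 (0.83 ± 0.16) and Lgr6, an R-spondin receptor, in G2 (0.81 ± 0.18).

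Centred on the median of all peaks, 499, 483 and 6 of 14559 peaks were called (mitosis minus interphase, interphase DOX minus withdrawn, mitosis DOX minus withdrawn), and 0, 1 and 0 of the 19. In mitosis DOX minus withdrawn, 5364 peaks and 4 of the 19 were called with the replicate block and 0 and 0 in edgeR on recovered reads. Same-numbered mitosis and interphase DOX libraries correlated at 0.469, -0.306, 0.238 and 0.117, mitosis DOX and withdrawn libraries at 0.504 and 0.433, and interphase ones at 0.172 and -0.319, so the numbers were not taken as pairs. Leaving out a replicate gave 11502 to 13529 peaks and 13 to 19 of the 19, 13661 to 14539 and 16 to 19, and 0 to 7109 and 0 to 9. Centring turned mitosis minus interphase to 0.2126, 0.8203, 0.01309 and 0.309 at 4 Wnt7b peaks, 0.3272 at a Lef1, 0.577 and 0.5088 at 2 Tcf7, 0.1416 at a Tcf7l1 and 0.006965 and 0.01306 at 2 Tcf7l2 peaks, and interphase DOX minus withdrawn to -0.8845 and -0.976 at Lef1, -0.5712 and -0.5274 at Tcf7, -0.5212 at Tcf7l1 and -0.7964 at Tcf7l2. Windows of 10 and 100 kb held 5 and 32 peaks. The cause was not tested. Low counts limit Sp5, Wnt2b and the withdrawn ChIP-seq libraries.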
